A study of Mus musculus with 6 samples.

Results

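The IL-6 family of cytokines, their receptors and the STAT3 pathway were examined in synovial fibroblasts (SFs), the stromal cells of the joint lining, with and without the antipsychotic drug amisulpride. The members were 10 genes taken by name from the deposited table of 49548 genes: the ligands Il6, Il11, Lif and Clcf1, the receptor chains Il6st, Il6ra, Osmr and Lifr, the transcription factor Stat3 and its feedback inhibitor Socs3. Each name was found, and 9 of the 10 passed a filter on low values that left 12614 genes for testing, with Il6ra falling below it. SFs were derived from the ankles of hTNFtg mice, which express a human TNF transgene and become arthritic, and per the study's methods were taken at 8 weeks of age and kept in culture. The methods for isolating SFs also include a step that depleted cells carrying the leukocyte marker CD45. Both groups carried the transgene, so neither shows the level in healthy SFs. The treated group received 500 μM amisulpride for 48 hours, while the controls had no treatment by their labels and vehicle by the methods, and are called untreated. Each group had 3 libraries, which the methods describe as biological replicates.

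IL-6 family cytokines signal through receptor complexes that contain gp130, the shared chain encoded by Il6st. Ligand binding brings gp130 together with a partner chain such as LIFR or OSMR, and the attached JAK kinases phosphorylate STAT3, which enters the nucleus and switches on target genes. SOCS3 is made from such a target gene and blocks the receptor in return. IL-6 made by SFs is a known driver of joint inflammation, and its receptor is a drug target in rheumatoid arthritis.

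The values are normalised counts, meaning reads per gene that the authors normalised and that are deposited as whole numbers. They come from a kit that reads the 3′ end of each transcript. Levels are compared here between libraries and not between genes. Depth was approximately 3.63 and 4.71 M reads in untreated replicates 2 and 3 and 2.52 to 4.4 M reads in the treated libraries, and could not be determined for untreated replicate 1. A floor of 3 reads, the most that a count of 0 allows, equalled 2.5 to 5.37 normalised counts in the 5 libraries where it could be set. Amisulpride replicate 3 stood apart on the leading principal component, at 73.9 against -38.2 to 10.4 for the others. It was the shallowest of the 5 libraries with an estimated depth. All 13 fibroblast markers were measured, with sums of 45221 to 60240 normalised counts in untreated and 52114 to 91864 in treated libraries. By group mean the most abundant were Col1a1, Col1a2, Col3a1 and Vim, each with a higher estimate, and they dominate these sums. Of the 13 markers 8 had higher and 5 lower estimates, the lower ones being Pdpn, Pdgfra, Pdgfrb, Lum and Prg4. Prg4 stood at 915, 859 and 733 in untreated and 426, 304 and 653 in treated libraries, without overlap. The 16 myeloid markers summed to 2572 to 4519 in untreated and 2516 to 4465 in treated libraries with none at 0 throughout. Lyz2 was the largest part of each myeloid sum, at 3046, 1733 and 2188 in untreated and 3287, 1879 and 1394 in treated libraries. Of the 15 myeloid markers tested 7 had higher and 8 lower estimates. The study thresholds asked for a log2 fold change of 1 or more in size together with an unadjusted p under 0.05. These thresholds, which 3.01% of all genes tested passed in the lower direction and 2.69% in the higher, were passed by 3 lower myeloid markers (Cd14, Spi1 and Csf1r) and 0 higher ones, and C1qc was higher with an unadjusted p of 0.0392 in limma. Of 10 lymphocyte markers, 8 were at 0 in all libraries, and the sum was 21 to 33 in untreated and 11 to 33 in treated libraries. The 9 endothelial markers, 3 of them at 0 throughout, summed to 77 to 98 in untreated and 27 to 67 in treated libraries, and the 5 pericyte markers, none at 0 throughout, to 201 to 224 and 110 to 152, without overlap between the groups. A single gene carried each gap, Egfl7 among the endothelial markers (66, 84 and 78 against 50, 59 and 25) and Mcam among the pericyte markers (112, 122 and 184 against 53, 47 and 57). The defining endothelial genes Cdh5, Cldn5 and Tie1 were at 0 throughout and Pecam1 and Kdr at 0 to 3, while the pericyte marker Cspg4 had a higher estimate (log2 fold change of 0.21). Their part in the members' values was not tested. In bulk RNA of this kind, fewer cells of a type and less RNA per cell cannot be told apart.

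The ligands were compared first. Il11 was the member with the largest change and fell 3.6-fold by the ratio of group means. Il6 had lower values in treated SFs that did not pass the unpaired test, and Lif and Clcf1 did not pass it either. Tests used limma on log2(normalised count + 1) without pairing the libraries, except where the replicate block is named.

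Il11 (ENSMUSG00000004371, mm10 chromosome 7, 4772373 to 4782857, minus strand) encodes interleukin 11, a cytokine that acts on fibroblasts and other stromal cells. It stood at 27, 25 and 38 normalised counts in untreated replicates 1 to 3 and at 6, 3 and 16 in the treated ones. All 3 treated values lay below all 3 untreated values. The means were 30 ± 7 and 8.33 ± 6.81 normalised counts (SD, n = 3). The log2 fold change was -1.97 ± 0.57 (SE), with a 95% interval of -3.22 to -0.72, an unadjusted p of 0.00522 and an adjusted p of 0.208 in limma over all genes. Il11 was thus past the study thresholds and not past the adjusted threshold. Its call at the study thresholds was kept in all 16 alternative settings, with log2 fold changes of -2.53 to -1.48 and adjusted p-values of 0.0317 to 0.601. The adjusted p was 0.041 without amisulpride replicate 3, where the log2 fold change was -2.53. The counts behind these values were small, with approximately 7, 2 and 9 reads in the treated libraries and 24 and 46 in untreated replicates 2 and 3. The value of 3 in amisulpride replicate 2 was under that library's floor of 4.01. Il11 passed the filter on low values through its 3 untreated libraries and 1 treated library.

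Il6 (ENSMUSG00000025746, mm10 chromosome 5, 30013114 to 30019981, plus strand) encodes interleukin 6, the founding ligand of the family. It stood at 36, 32 and 9 normalised counts in untreated replicates 1 to 3 and at 16, 13 and 4 in the treated ones. The groups overlapped because untreated replicate 3 was lower than amisulpride replicates 1 and 2, although the treated library was lower in 3 of 3 pairs with the same replicate number. The means were 25.7 ± 14.6 and 11 ± 6.24 normalised counts (SD, n = 3), a ratio of 2.33. The log2 fold change was -1.12 ± 0.64 (SE), with a 95% interval of -2.53 to 0.29, an unadjusted p of 0.11 and an adjusted p of 0.573 in limma. With the replicate number as a block the unadjusted p was 0.0324 and the adjusted p 0.283, which placed Il6 past the study thresholds. Without untreated replicate 3 the log2 fold change was -1.72 with an unadjusted p of 0.0215, and without amisulpride replicate 3 it was -0.58 with an unadjusted p of 0.337. The untreated libraries 2 and 3 held approximately 30 and 11 reads of Il6 and the treated libraries 18, 10 and 2. The value of 4 in amisulpride replicate 3 was under that library's floor of 5.37.

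Promoter windows of Il6 and Il11 are shown because these 2 members had the largest log2 fold changes. They are the 250 bases before the RefSeq start on GRCm38.p6, the same build as mm10, at chr5:30012864-30013113 on the plus strand for Il6 and chr7:4778142-4778391 on the minus strand for Il11. The Il11 window precedes the downstream of its 2 listed starts and so lies inside the gene's span in the deposited table, but overlaps no GENCODE exon of Il11. Capitals mark matches to the NF-kB motif GGNNTTTCC or the AP-1 motif TGANTCA, searched on both strands.
Il6: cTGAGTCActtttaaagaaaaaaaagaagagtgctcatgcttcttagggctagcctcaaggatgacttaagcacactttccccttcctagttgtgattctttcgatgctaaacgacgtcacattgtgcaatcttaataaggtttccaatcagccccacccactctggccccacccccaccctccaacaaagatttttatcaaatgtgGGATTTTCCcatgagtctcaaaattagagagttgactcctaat
Il11: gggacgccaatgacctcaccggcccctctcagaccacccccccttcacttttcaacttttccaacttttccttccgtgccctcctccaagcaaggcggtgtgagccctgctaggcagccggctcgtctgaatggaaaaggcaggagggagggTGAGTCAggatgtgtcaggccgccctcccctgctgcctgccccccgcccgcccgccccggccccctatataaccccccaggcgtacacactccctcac
The Il6 window held an NF-kB match whose first base lay 43 bases before the start and an AP-1 match at 249 bases, and these did not overlap. The Il11 window held an AP-1 match at 98 bases and no NF-kB match, and the window before the upstream Il11 start (chr7:4782858-4783107) held neither motif. The AP-1 motif was added to the search after the windows had been seen. Across all 32851 windows of this length in the table, 4.93% held the NF-kB motif and 6.75% the AP-1 motif. Windows were found for 9 of the 10 members, 11 windows in all. The NF-kB motif stood in 1 of them and the AP-1 motif in 3, the last in Lif at 228 bases before the start. A match describes the letters and says nothing of binding in these cells.

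Lif (ENSMUSG00000034394, mm10 chromosome 11, 4257557 to 4272514, plus strand), which encodes leukemia inhibitory factor, stood at 65, 112 and 58 normalised counts in untreated and 97, 66 and 91 in treated libraries. The highest and the lowest value both belonged to untreated libraries, and the treated values lay between them. The log2 fold change was 0.15 ± 0.32 (SE), with a 95% interval of -0.56 to 0.86 and an unadjusted p of 0.648 in limma, and it was -0.03 without untreated replicate 3.

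Clcf1 (ENSMUSG00000040663, mm10 chromosome 19, 4214238 to 4223490, plus strand) encodes cardiotrophin-like cytokine factor 1. It stood at 48, 58 and 66 normalised counts in untreated and 52, 43 and 30 in treated libraries, and the groups overlapped through amisulpride replicate 1. Its change on the log2 scale was -0.47 ± 0.32 (SE), with a 95% interval of -1.19 to 0.24 and an unadjusted p of 0.171 in limma.

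**Figure D1:**
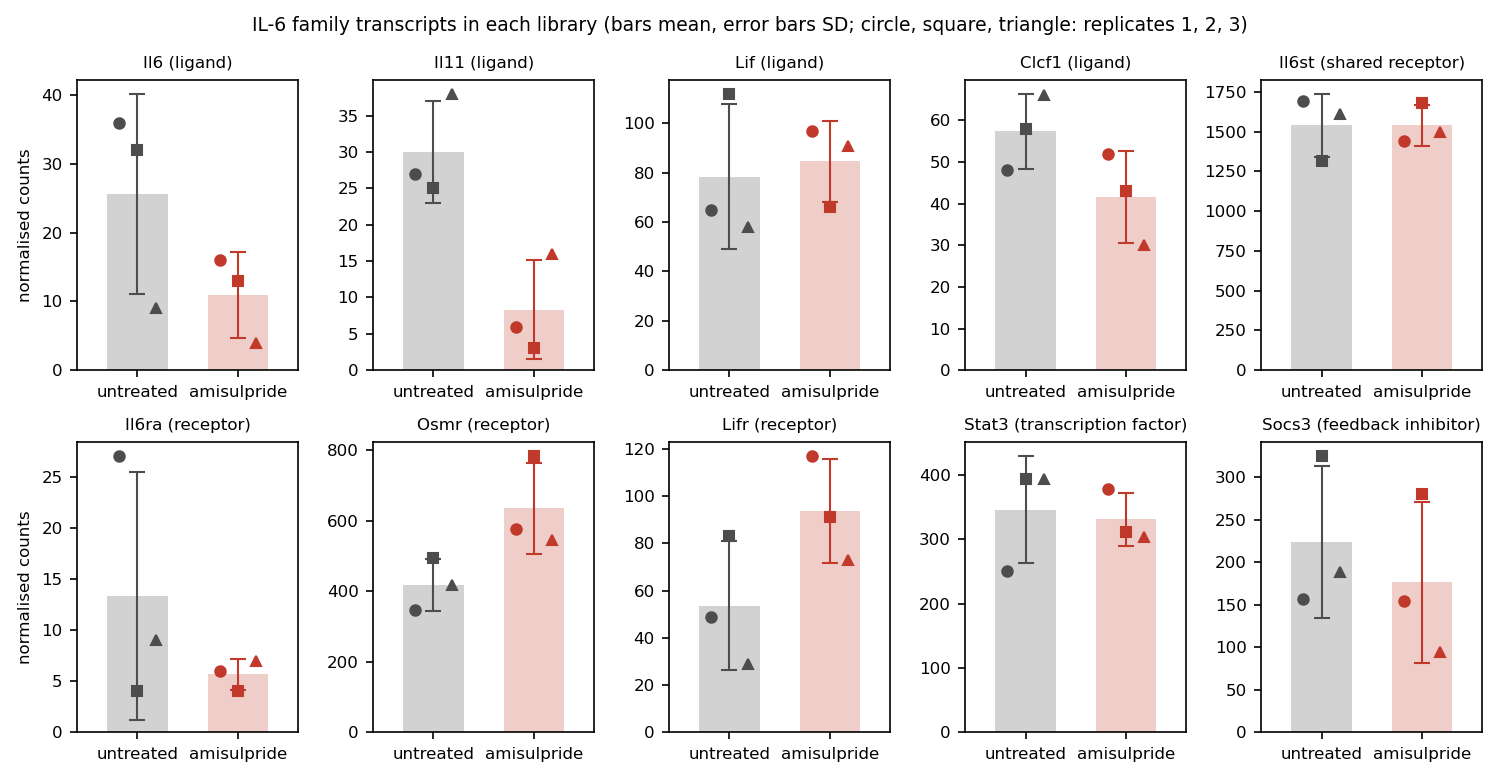
Normalised counts of the 10 members (y axes, each panel with its own scale from 0) in untreated (grey) and amisulpride-treated (red) libraries, with bars for means, error bars for the SD over 3 libraries, and a circle, square and triangle for replicates 1, 2 and 3. The treated values lie below all untreated values for Il11, above all of them for Osmr, and overlap them for the other 8 members.

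Among the receptor chains, Osmr and Lifr had higher values in treated SFs at an unadjusted p under 0.05, while the shared chain Il6st stood at nearly the same mean in both groups. Neither Osmr nor Lifr reached the size condition of the study thresholds or the adjusted threshold.

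Osmr (ENSMUSG00000022146, mm10 chromosome 15, 6813577 to 6874969, minus strand) encodes the chain that joins gp130 in the oncostatin M receptor. It stood at 346, 494 and 418 normalised counts in untreated and 578, 784 and 546 in treated libraries. The treated values were above all untreated ones, and the means were 419 ± 74 and 636 ± 129 (SD, n = 3), a ratio of 1.52. The log2 fold change was 0.60 ± 0.25 (SE), with a 95% interval of 0.04 to 1.15, an unadjusted p of 0.0381 and an adjusted p of 0.421 in limma. The unadjusted p reached 0.118 and 0.0848 without untreated replicates 1 and 3, and 0.0516 and 0.151 without amisulpride replicates 1 and 2. It was also 0.0806 with equal library totals, 0.0678 without the variance trend and 0.0515 after quantile normalisation. In the other direction, it was 0.0278 with the replicate block, 0.0204 with weights per library and 0.0181 without amisulpride replicate 3.

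Lifr (ENSMUSG00000054263, mm10 chromosome 15, 7129559 to 7197489, plus strand) encodes the receptor chain for LIF. It stood at 49, 83 and 29 normalised counts in untreated and 117, 91 and 73 in treated libraries. The groups overlapped because amisulpride replicate 3 was below untreated replicate 2, and the treated library was higher in 3 of 3 same-number pairs. The means were 53.7 ± 27.3 and 93.7 ± 22.1 (SD, n = 3), a ratio of 1.75, and the log2 fold change was 0.89 ± 0.38 (SE), with a 95% interval of 0.05 to 1.73, an unadjusted p of 0.0403 and an adjusted p of 0.428 in limma. Without untreated replicate 2 it was 1.26 (unadjusted p of 0.0082) and without amisulpride replicate 3 it was 1.06 (unadjusted p of 0.0212), both past the study thresholds, as it was with weights per library (1.02, unadjusted p of 0.0204). It was 0.52 without untreated replicate 3, with an unadjusted p of 0.195. The unadjusted p was also above the threshold without untreated replicate 1 (0.0824) and without amisulpride replicates 1 (0.133) and 2 (0.0748), with equal library totals (0.0638) and without the variance trend (0.0572). With the replicate block the unadjusted p was 0.0139 and the adjusted p 0.189.

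Il6st (ENSMUSG00000021756, mm10 chromosome 13, 112464070 to 112510086, plus strand) stood at 1693, 1315 and 1608 normalised counts in untreated and 1439, 1681 and 1494 in treated libraries. The lowest and the highest value both came from untreated libraries. The means were 1539 ± 198 and 1538 ± 127 (SD, n = 3), and the log2 fold change of 0.00 ± 0.24 (SE) had a 95% interval of -0.51 to 0.52 (unadjusted p of 0.985 in limma). A change in either direction within that interval cannot be told from none with these libraries.

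Il6ra (ENSMUSG00000027947, mm10 chromosome 3, 89864059 to 89913196, minus strand) encodes the chain that binds IL-6 itself and is known mainly from liver cells and leukocytes. It stood at 27, 4 and 9 normalised counts in untreated and 6, 4 and 7 in treated libraries, too low for the filter. Untreated replicate 1 held the highest value, and it was also the library with the highest sum of myeloid markers, 4519 normalised counts. Amisulpride replicate 1 had a myeloid sum of 4465 and an Il6ra value of 6, and the part of myeloid RNA in the Il6ra values was not tested.

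Stat3 (ENSMUSG00000004040, mm10 chromosome 11, 100885098 to 100939540, minus strand) stood at 250, 394 and 394 normalised counts in untreated and 378, 311 and 304 in treated libraries. Untreated replicate 1 was the lowest library and the treated values fell within the untreated range. Its change on the log2 scale was -0.04 ± 0.26 (SE), with a 95% interval of -0.62 to 0.54 and an unadjusted p of 0.883 in limma. Stat3 overlaps Stat5a on the opposite strand, from 100885098 to 100885169. This overlap lies at the 3′ end of both genes, the end that the kit reads. Stat5a stood at 11 to 71 normalised counts, and how strand was treated in counting is not given in the sources used here. These are transcript levels, and phosphorylation of the STAT3 protein was not measured here.

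Socs3 (ENSMUSG00000053113, mm10 chromosome 11, 117966079 to 117970047, minus strand), which encodes the feedback inhibitor of gp130 receptors, stood at 157, 325 and 189 normalised counts in untreated and 154, 280 and 95 in treated libraries. Replicate 2 was the highest library of each group, the groups overlapped, and the treated library was lower in 3 of 3 same-number pairs. The log2 fold change was -0.41 ± 0.40 (SE), with a 95% interval of -1.28 to 0.46 and an unadjusted p of 0.326 in limma. It ranged from -0.81 without amisulpride replicate 2 to -0.04 without amisulpride replicate 3. Part of the Socs3 promoter window is shown because this window was the only one of the 11 that held the STAT motif TTCNNNGAA, which stood in 7.02% of all windows. The stretch runs from 250 to 91 bases before the RefSeq start (GRCm38.p6, chr11:117969457-117969616, minus strand). It lies inside the gene's span in the deposited table, as the Il11 window does, and was cut to bases that no GENCODE exon of Socs3 holds. Capitals mark the match, whose first base lay 154 bases before the start.
Socs3: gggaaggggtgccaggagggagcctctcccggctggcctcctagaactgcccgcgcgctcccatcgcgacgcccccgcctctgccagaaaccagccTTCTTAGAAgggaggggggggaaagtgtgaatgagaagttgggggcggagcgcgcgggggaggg

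**Figure D2:**
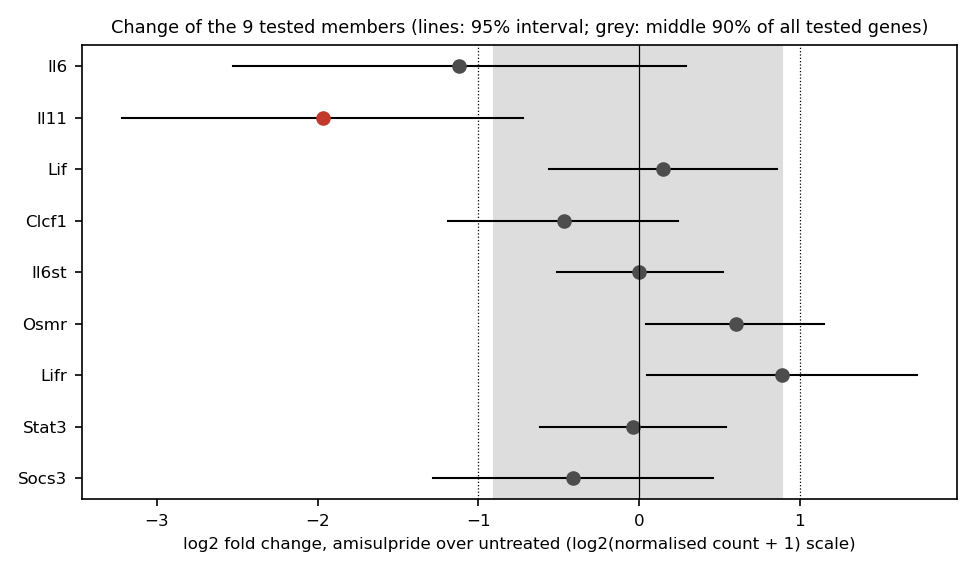
Log2 fold change of the 9 tested members, amisulpride over untreated (x axis; points are limma estimates and lines their 95% intervals), with dotted lines at the study's size condition and a grey band from -0.91 to 0.89 that holds the middle 90% of all tested genes. The interval excludes 0 for Il11, Osmr and Lifr, and the Il11 point (red) is the one past the study thresholds.

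The members were then counted against all genes tested. At the study thresholds 1 member was lower (Il11), where 3.01% of all genes tested were lower, and 0 members were higher, where 2.69% of genes were. At an unadjusted p under 0.05 in limma, 1 member was lower against 5.77% of all genes, and 2 were higher (Osmr and Lifr) against 5.11%. At an adjusted p under 0.05 there were 0 members in limma, against 0.285% of genes. The groups did not overlap for 1 member that was lower (Il11), against 8.66% of genes, and for 1 that was higher (Osmr), against 7.8%. Of the 9 tested members 4 had higher and 5 lower estimates, and the median log2 fold change was -0.04, against 0.00 over all genes tested, of which 6325 were higher and 6289 lower. Counts of 1 or 2 among 9 genes are too small to be set apart from these shares. With the replicate block the count past the study thresholds was 2, with Il6 added to Il11.

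**Figure D3:**
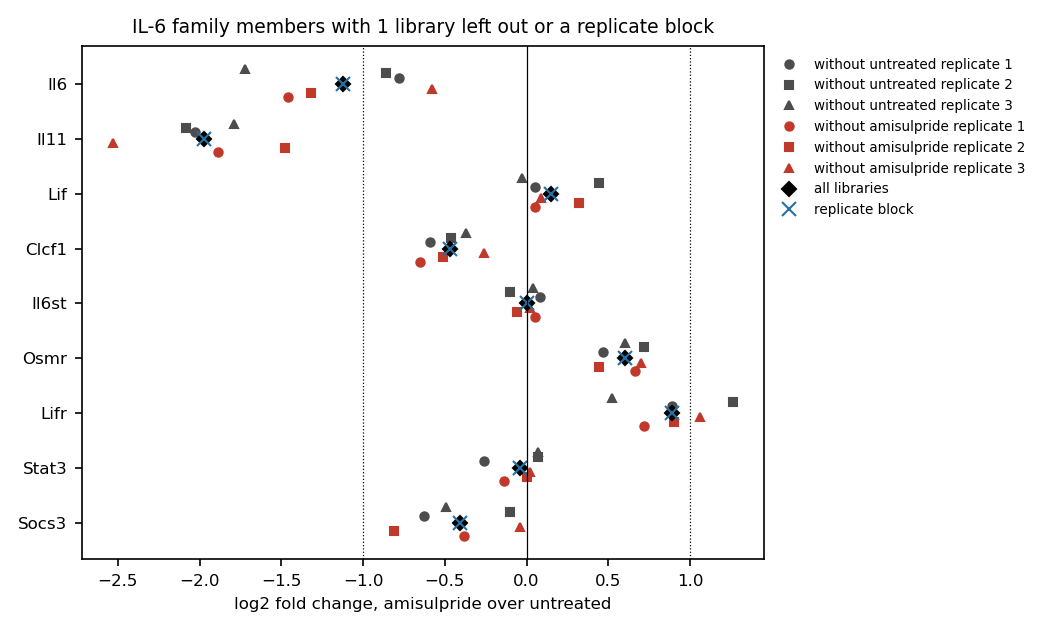
Log2 fold change of the 9 tested members (x axis) with all 6 libraries (black diamonds), with the replicate block (blue crosses, same estimates) and with 1 untreated (grey) or 1 treated (red) library left out, where circle, square and triangle stand for replicates 1, 2 and 3. Il11 stays between -2.53 and -1.48, Il6 moves between -1.72 and -0.58, and Lif, Il6st and Stat3 cross 0.

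The rest of the pathway was described through 7 lists holding 103 genes, of which 85 were tested. At the study thresholds 4 were higher (Lcn2, Atf3, Gadd45g and Hgf) and 2 lower (Ptpn6 and Saa3), against the 2.69% and 3.01% of all genes given above. The estimates were higher for 36 and lower for 49, with a median log2 fold change of -0.09. With the replicate block the count past the study thresholds was 11, with Dusp2, Hp, Upp1 and Serpina3n among the added genes.

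Of the other ligands and ligand partners 2 of 9 were tested, and 0 passed the study thresholds. Of the other receptors 1 of 4 was tested, Il11ra1, the receptor for IL-11. It stood at 2417, 1400 and 1116 normalised counts in untreated and 2333, 1852 and 1700 in treated libraries, which overlapped, with a log2 fold change of 0.32 ± 0.31 (SE) and an unadjusted p of 0.323 in limma. All 4 genes for receptor shedding were tested, among them the IL-6 receptor sheddase Adam17, and 0 passed the study thresholds. The lowest p-value of that list was that of Rhbdf2, which encodes a partner of ADAM17, at 26, 43 and 36 normalised counts in untreated and 30, 25 and 20 in treated libraries (log2 fold change of -0.46 ± 0.36, unadjusted p of 0.233).

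All 14 kinases, adaptors and other STATs were tested and 0 passed the study thresholds, with a median log2 fold change of -0.02. The receptor kinase Jak1 stood at 309, 522 and 533 normalised counts in untreated and 593, 507 and 1027 in treated libraries, with a log2 fold change of 0.61 and an unadjusted p of 0.0833 in limma. Its relatives Jak2 and Tyk2 had log2 fold changes of -0.04 and -0.72, with unadjusted p-values of 0.897 and 0.112. These 3 kinases were named after their values were seen.

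Among feedback regulators and inhibitors 15 of 16 were tested, 1 was lower past the study thresholds and 0 were higher. Ptpn6 encodes SHP-1, a phosphatase found mainly in blood cells. It stood at 82, 34 and 41 normalised counts in untreated and 36, 20 and 9 in treated libraries, with overlap, and fell by 1.32 on the log2 scale (SE 0.51, unadjusted p of 0.0248, adjusted p of 0.357 in limma). The estimate was -0.95 (unadjusted p of 0.129) without untreated replicate 1 and -0.83 (unadjusted p of 0.0795) without amisulpride replicate 3, so the call was lost without either library. It was also lost with weights per library (-0.89, unadjusted p of 0.0581). In limma with the replicate block the call was kept, with an unadjusted p of 0.00352 and an adjusted p of 0.0937. The myeloid marker sums were 4519, 2572 and 3154 normalised counts in untreated replicates 1 to 3 and 4465, 2516 and 2541 in the treated ones. Ptprc, which encodes the leukocyte marker CD45, stood at 38, 12 and 18 in untreated and 23, 5 and 5 in treated libraries, while the macrophage markers Adgre1, C1qb and C1qc of the same list had higher estimates (log2 fold changes of 0.83, 0.75 and 0.95). Ptpn6 was highest in untreated replicate 1, as were Ptprc and the myeloid sum, and the part of leukocyte RNA in its values was not tested.

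Among genes known as STAT3 targets 33 of 40 were tested, with 3 higher and 1 lower past the study thresholds and a median log2 fold change of -0.05. The 3 that rose were Lcn2, Gadd45g and Hgf. Lcn2, which encodes the iron carrier lipocalin 2, stood at 35, 16 and 9 normalised counts in untreated and 231, 361 and 159 in treated libraries, and it was the 1 pathway gene past the adjusted threshold (log2 fold change of 3.70 ± 0.46, adjusted p of 0.013 in limma). Leaving out untreated replicate 2 or 3 gave an adjusted p of 0.083 or 0.0922, and leaving out amisulpride replicate 2 gave 0.059, with log2 fold changes of 3.65, 3.26 and 3.40. With the replicate block the acute-phase gene Hp also had an adjusted p under 0.05, at 0.0193. Gadd45g, a growth arrest and stress gene, stood at 606, 627 and 482 in untreated and 828, 1158 and 1922 in treated libraries, without overlap (log2 fold change of 1.11 ± 0.31, unadjusted p of 0.00423, adjusted p of 0.19). It missed the size condition without untreated replicate 3 (0.99), without amisulpride replicate 3 (0.78) and with weights per library (0.96). The replicate block in limma gave Gadd45g an unadjusted p of 0.0015 and an adjusted p of 0.0602. Hgf, which encodes hepatocyte growth factor, stood at 30, 41 and 58 in untreated and 113, 40 and 145 in treated libraries, where amisulpride replicate 2 lay within the untreated range. Its log2 fold change was 1.05 ± 0.46 with an unadjusted p of 0.0418, and the call was lost in 8 of 16 alternative settings, including those without untreated replicate 1 (0.82) or 2 (1.04, unadjusted p of 0.087) and without amisulpride replicate 1 (0.86) or 3 (0.69). For Hgf the replicate block in limma gave an unadjusted p of 0.00993 and an adjusted p of 0.16.

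The 1 STAT3 target that fell past the study thresholds was Saa3, which encodes an acute-phase serum amyloid A protein made in stromal tissue. It stood at 6122, 6646 and 2886 normalised counts in untreated and 3569, 3434 and 905 in treated libraries. Replicate 3 was the lowest library of each group, and the groups overlapped. Saa3 fell by 1.13 on the log2 scale (SE 0.51, unadjusted p of 0.0461, adjusted p of 0.452 in limma), and the adjusted p was 0.0459 with the replicate block. The estimate was -0.97 and -0.91 without untreated replicates 1 and 2 and -0.48 without amisulpride replicate 3, each short of the study thresholds. The call was also lost with weights per library (-0.64, unadjusted p of 0.134) and without the variance trend (unadjusted p of 0.0818). At an unadjusted p under 0.05 in limma, 3 of the 33 tested genes were higher and 5 were lower. The shares over all genes tested were 5.11% higher and 5.77% lower. The other 4 lower ones, named after their values were seen, were Pim1, Bcl3, Cebpb and Birc5. Pim1, which encodes a survival kinase, stood at 323, 445 and 450 normalised counts in untreated and 219, 215 and 181 in treated libraries, without overlap (log2 fold change of -0.97 ± 0.25, unadjusted p of 0.0022, adjusted p of 0.143 in limma). Bcl3 and Cebpb, which encode transcription regulators of inflammatory genes, had no overlap either, with log2 fold changes of -0.84 and -0.65. Birc5, which encodes the mitotic protein survivin, had a log2 fold change of -0.88 with overlap. Without overlap, 5 genes of the list were higher and 3 lower, against 7.8% and 8.66% of all genes tested. The higher ones included Cebpd, Pim3 and Klf4, also named after their values were seen. Their log2 fold changes were 0.45, 0.49 and 0.44, with unadjusted p-values of 0.104, 0.0845 and 0.103 in limma. The liver acute-phase genes Fga, Fgb, Fgg and Crp of this list were at 0 in all 6 libraries.

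All 16 regulators of Il6 transcription and mRNA decay were tested, with 1 higher and 0 lower past the study thresholds. Atf3, which encodes a stress-induced transcription factor known to repress Il6, stood at 7, 8 and 16 normalised counts in untreated and 32, 32 and 27 in treated libraries, without overlap. It rose by 1.55 ± 0.45 on the log2 scale, with an unadjusted p of 0.00523 and an adjusted p of 0.208 in limma, and kept its call in all 16 alternative settings (1.25 to 1.88). The list's median log2 fold change was -0.08.

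**Figure D4:**
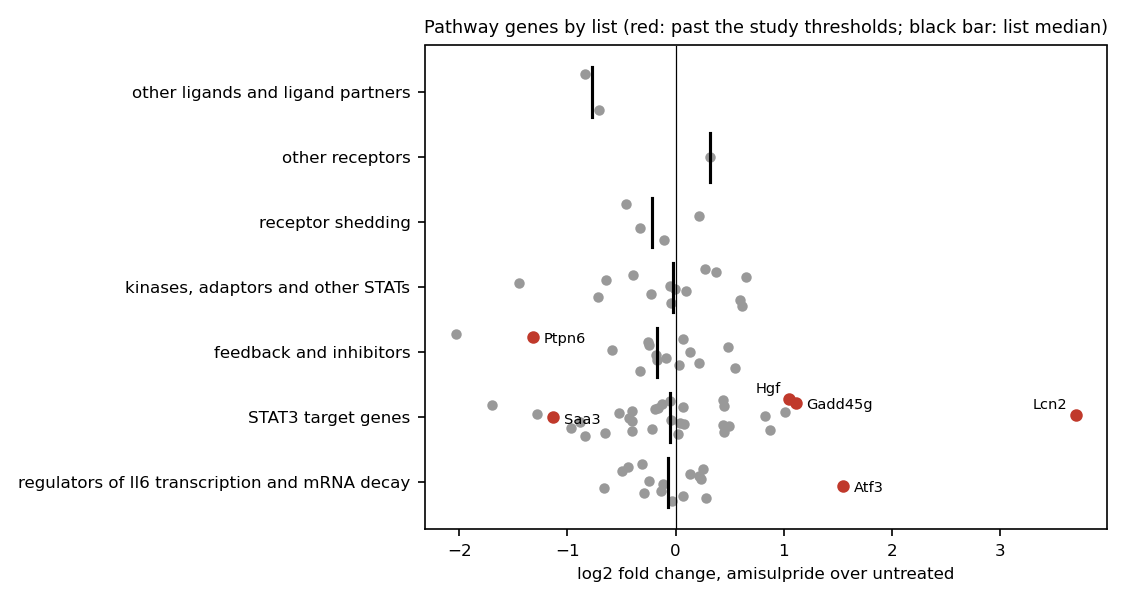
Log2 fold change of the 85 tested pathway genes (x axis, amisulpride over untreated) in 7 lists (rows), with red and named points past the study thresholds and a black bar at each list's median. The medians of the longer lists lie close to 0, and Lcn2 at 3.70 stands farthest from it.

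For Il6, Lif and Socs3 the genes with the most similar pattern over the 6 libraries were found by Pearson's r of log2 values among 11034 protein-coding genes, as a description. Il6 was closest to Il4ra (r = 0.997), which encodes a receptor chain for interleukin 4, then Limk2 (0.992) and Rrm2 (0.989). Il4ra stood at 5050, 4899 and 2879 normalised counts in untreated and 3503, 3421 and 2018 in treated libraries, and so shared with Il6 a low replicate 3 in each group. Lif was closest to Pfas (0.987), Rassf4 (0.964) and Ppp1r2 (0.956). Socs3 was closest to Slc39a13 (0.986), Ccdc159 (0.985) and Llgl2 (0.978). Each r rests on 6 points that share group and replicate number, and is the highest found among all genes compared.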

How the data were processed

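RNA from 6 cultures of hTNFtg SFs was made into libraries with a 3′ mRNA kit and read on an Ion Proton instrument. The authors mapped reads to mm10 with TopHat2 and then Bowtie2, counted reads per gene with GenomicRanges, normalised the counts and tested with DESeq, all through metaseqr, while the normalisation method and versions are not given in the sources used here. The deposited values used here are a score, namely normalised read counts in whole numbers. The authors' own fold changes and p-values, and 12 columns holding the libraries on other scales, were not used.

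Groups follow the labels. Genes needed at least 10 normalised counts in at least 3 of 6 libraries, and limma 3.58.1 (R 4.3.3) compared the groups on the scale of log2(normalised count + 1) with a variance trend and two-sided p-values adjusted by Benjamini-Hochberg over 12614 genes, after a test on simulated data. This scale understates changes of low genes. An exact permutation test of 3 against 3 libraries cannot go below 0.1 and was not used. The reads behind 1 normalised count were estimated from the spacing of low values, which assumes 1 scaling factor per library and gave no estimate for untreated replicate 1, so depths and reads per gene are approximate. Floors cover counting error only. Deviations from the group means correlated between same-number libraries at 0.229, 0.24 and 0.201 over 12614 genes and at -0.149 to -0.0777 between others. Same-number libraries thus varied together, while what a replicate number marks is not given in the sources used here. The main fit, which gave the calls, left this pairing unused. The fit with the replicate number as a block, which uses the pairing, is given as an alternative.

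The members and lists were chosen with earlier results of these data known. The named genes are all members, each pathway gene past the study thresholds and, in lists without such a gene, the tested gene with the lowest p, of which 2 are not reported here. Promoter windows came from RefSeq (GRCm38.p6), with 9 of 10 members matched and Clcf1 not used here. Alternatives changed the pseudocount, filter, scaling, variance model or weights, added the block, or left out each library.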

Additional observations from a re-analysis of the deposited data

How the results depend on the processing

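Depth limits the ligands Il6 and Il11, which rest on about 2 to 46 reads in the libraries where reads could be estimated. Of 303 values of single genes under alternatives, 265 kept direction and call, 19 lost the call, 10 gained it and 9 changed sign, and the cause was not tested. Il6 had no value under the filter of at least 20, which it did not pass. Sign changes were Il6st at -0.07 under quantile normalisation and under equal totals, and, when single libraries were left out, Il6st (-0.10 to 0.08), Stat3 (-0.26 to 0.07) and Lif (-0.03 to 0.44).

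Genes past the study thresholds numbered 719, 1313 without the filter, where more genes were tested, and 563 to 1000 with 1 library left out. Genes at an adjusted p under 0.05 numbered 36, 57 with a pseudocount of 5, 57 without the filter, 66 after quantile normalisation, 195 with weights per library, 263 with the replicate block, and 0 to 120 with 1 library left out. The 0 arose in limma without untreated replicate 2 or 3, where 1083 and 911 genes had an unadjusted p under 0.05. Members past the study thresholds numbered 1, and 2 with weights, 2 with the replicate block and 1 to 2 with 1 library left out. Members at an unadjusted p under 0.05 numbered 3, and 1 under equal totals, 1 without the variance trend and 1 to 3 with 1 library left out. Members at an adjusted p under 0.05 numbered 0 in limma, 1 with weights and 0 to 1 with 1 library left out. Pathway genes past the study thresholds numbered 6, 11 with the replicate block and 5 to 10 with 1 library left out. Apart from Il6, the adjusted p of Saa3 and these counts, the block changed no other call among the genes named in the report by rule.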
